A study of Mus musculus with 16 samples.

Results

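Messenger RNA of 10 genes of the pyruvate dehydrogenase (PDH) system was described in mouse liver. The genes were chosen by name: the 4 PDH kinases Pdk1, Pdk2, Pdk3 and Pdk4, the 2 PDH phosphatases Pdp1 and Pdp2, and the 4 complex subunits Pdha1, Pdhb, Dlat and Pdhx. Each was found as a single gene among the 55416 genes of the count files, and all 10 had enough counts to be among the 14770 genes tested.

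The livers came from 16 wild-type C57BL/6J mice that fell into 4 groups of 4. Each mouse, 8 weeks old, was injected in the tail vein with an adenovirus, either a control virus (Ad-CTRL) or one carrying FAT10 (Ad-FAT10), at the same dose of genome copies, so the controls carried a virus too. FAT10, encoded by Ubd, is a ubiquitin-like protein that marks others for the proteasome. Starting 4 days after the virus, mice of each kind were gavaged with the vehicle CMC or with 1 mpk of pemafibrate (Pema), an agonist of the fatty acid receptor PPARα, 18 h and 5 h before the liver was taken, and all were fasted for 5 h. The 4 groups are named by virus and treatment, and 4 values in a row are always for CMC and then Pema with Ad-CTRL, followed by the same treatments with Ad-FAT10, unless the sentence names 4 livers of a single group. The sources used here do not give the promoter that drives FAT10 or the cells that were infected.

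PDH is the mitochondrial complex that turns pyruvate into acetyl-CoA, and so commits carbon from glucose to oxidation or fat synthesis. PDH kinases phosphorylate the alpha subunit of its first enzyme and switch the complex off, and PDH phosphatases remove the phosphate and switch it on again. In liver, Pdk4 is known as a fasting-induced kinase that spares pyruvate while fatty acids are burned, and PPARα agonists are known to raise its mRNA. The data are mRNA levels alone, and neither phosphorylation nor activity of the complex was measured.

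The libraries held 18663498 to 28898229 counts each, so a count of 0 allows up to 0.104 to 0.161 CPM (counts of a gene after all libraries are brought to the same total) for counting error alone. Levels are CPM after scaling of the libraries by trimmed mean of M values (TMM), and a gene was called changed at an edgeR quasi-likelihood p under 0.05 after Benjamini-Hochberg adjustment over all 14770 genes. Ubd checked the virus labels: its highest level in an Ad-CTRL liver was 47.8 CPM and its lowest in an Ad-FAT10 liver was 110.5 CPM. Ubd was also higher with pemafibrate, at 11.2 and 27.5 CPM on average with Ad-CTRL (edgeR adjusted p = 0.00945) and at 237 and 460 CPM with Ad-FAT10 (0.0413). With Ad-CTRL the treatment groups overlapped, the lowest Pema liver at 14.2 CPM and the highest CMC liver at 15.2 CPM. The mean FAT10 mRNA level thus differed between the treatments within each virus. The part of this in the Ad-FAT10 comparisons and the interaction was not tested. All 10 hepatocyte markers had counts in every group, with summed levels between 40300 and 109000 CPM over the libraries, so the tissue label held. In whole liver, fewer cells of a type and less RNA per cell cannot be told apart.

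Pemafibrate raised Pdk4 more than any other of the 10 genes, and it also raised the phosphatase Pdp2 and the core subunits Dlat and Pdhx with either virus. In Ad-CTRL livers 4 of the 10 genes rose and 1 fell, where 16.2% and 14.4% of all genes tested did so. In Ad-FAT10 livers 5 rose and 0 fell, against 12.9% and 12.5% of all genes. The median log2 change of the 10 genes was 0.256 in Ad-CTRL livers and 0.172 in Ad-FAT10 livers, beside -0.008 and -0.012 over all genes tested.

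Ad-FAT10 was accompanied by lower Pdk1 and Pdha1 and higher Pdk3 and Pdp1 under both treatments. Under CMC 3 genes were higher and 3 lower, against 22.5% and 20.2% of all genes tested. Under pemafibrate 2 were higher and 4 lower, against 21.2% and 20.5%. Under CMC both counts were near the shares of all genes. Under pemafibrate the higher count was near its share and the lower count above it, in a list of only 10 genes and with no set test. The median log2 change of the 10 genes with Ad-FAT10 was -0.052 under CMC and -0.214 under pemafibrate, beside -0.010 and -0.020 over all genes. The Ad-CTRL CMC livers serve as control in more than 1 of these comparisons, so the comparisons are not independent of each other.

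**Figure D1:**
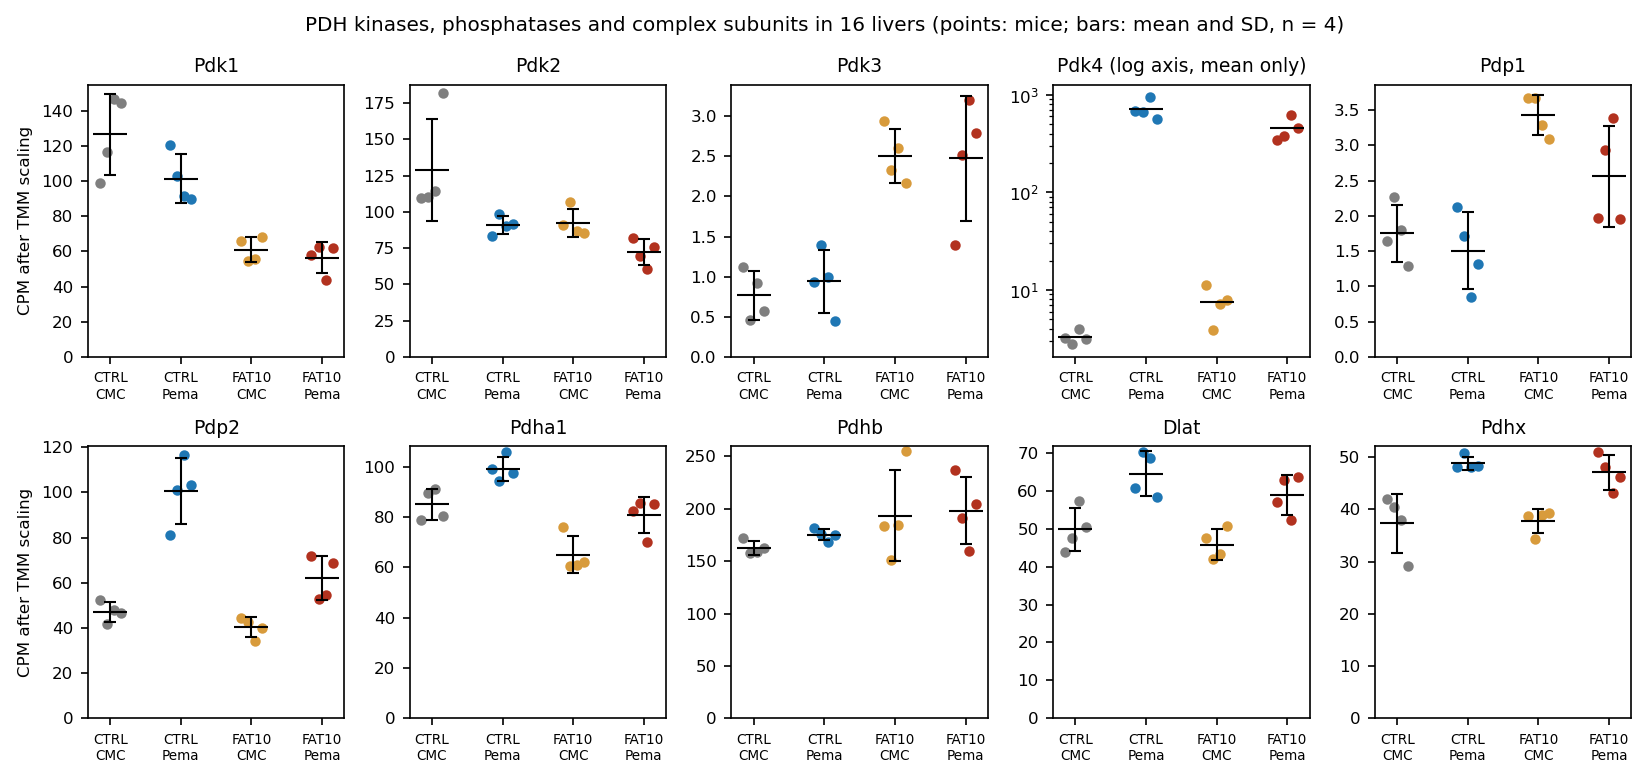
Level of each of the 10 genes in each of 16 livers (vertical axis, CPM after TMM scaling, on a log axis for Pdk4 only; horizontal axis, group). Points are mice and bars are the mean and SD of 4 mice (mean only for Pdk4). The 8 pemafibrate livers stand at 342 to 951 CPM of Pdk4, and the 8 CMC livers at 2.77 to 11.2 CPM.

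**Figure D2:**
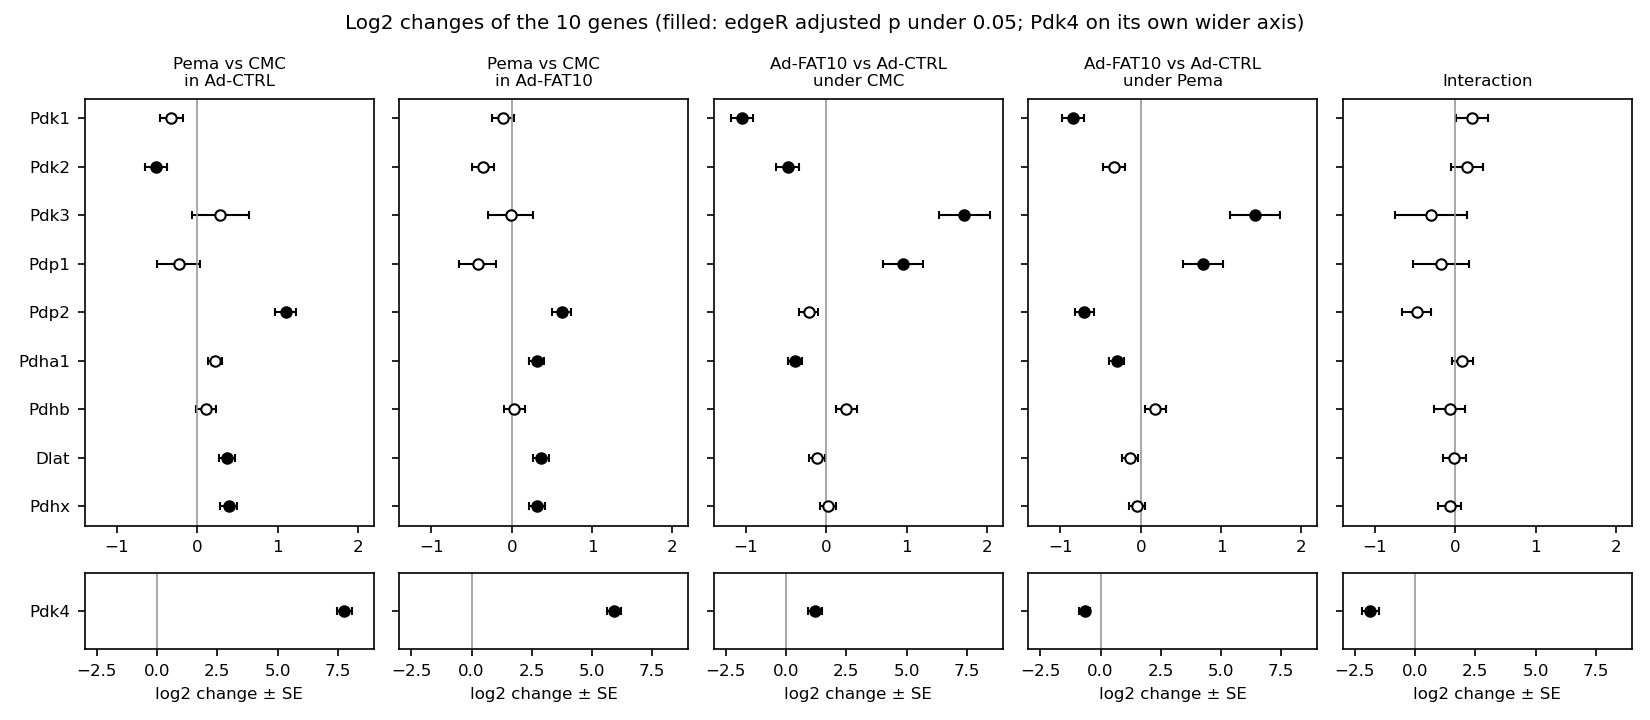
Log2 change ± SE of each gene in the 4 comparisons and the interaction (horizontal axis, log2; Pdk4 on its own, wider axis). Filled points passed an edgeR adjusted p of 0.05. Pdk4 and Pdp2 rose with pemafibrate with either virus, and Pdk1 fell and Pdk3 rose with Ad-FAT10 under either treatment.

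The promoters of Pdk4 and Pdp2 are shown because these were the kinase and the phosphatase that rose with pemafibrate. Each line gives 250 bases before and 50 after the start of the gene from RefSeq, on GRCm38.p6, with each CG dinucleotide in capitals. Pdk4 lies at chr6:5496229-5496528 on the minus strand and Pdp2 at chr8:104591222-104591521 on the plus strand.
Pdk4: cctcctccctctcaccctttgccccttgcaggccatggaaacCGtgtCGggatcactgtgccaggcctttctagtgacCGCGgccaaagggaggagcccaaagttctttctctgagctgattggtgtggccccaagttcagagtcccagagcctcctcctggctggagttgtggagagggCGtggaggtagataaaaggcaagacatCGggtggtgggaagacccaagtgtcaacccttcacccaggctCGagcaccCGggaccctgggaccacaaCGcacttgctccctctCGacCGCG
Pdp2: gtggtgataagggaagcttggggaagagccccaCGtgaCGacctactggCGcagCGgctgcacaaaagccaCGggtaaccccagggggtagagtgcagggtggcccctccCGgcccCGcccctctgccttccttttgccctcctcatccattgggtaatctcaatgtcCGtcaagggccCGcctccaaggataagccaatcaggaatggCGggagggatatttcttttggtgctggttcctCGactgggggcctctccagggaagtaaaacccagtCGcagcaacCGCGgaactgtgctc

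These windows held 12 CG dinucleotides at Pdk4 and 14 at Pdp2. The first listed promoters of the other matched genes ran from 18 at Dlat to 35 at Pdk3. Second promoters held 2 at Pdk1 and 13 at Pdk2, so low counts were not particular to Pdk4 and Pdp2. The median over 32851 mouse promoters of the same length was 7 (quartiles 3 and 20). In all, 11 promoters of 9 of the 10 genes were matched, and that of Pdp1 is not shown. They were searched on both strands for 4 motifs, the nuclear receptor half-site AGGTCA, its direct repeat AGGTCANAGGTCA (which contains the half-site), the FOXO element TGTTTAC and the TATA element TATAAA. These were present in 16.3%, 0.0396%, 3.65% and 13.6% of all promoters, and in 0 of the 11, which says only that these letters were not in these windows.

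Pdk4 was low in CMC livers and the most abundant of the 10 transcripts in pemafibrate livers. Its level in the 4 Ad-CTRL CMC livers was 3.23, 2.77, 3.98 and 3.14 CPM, and in the 4 Ad-CTRL Pema livers 688, 661, 951 and 567 CPM. In Ad-FAT10 CMC livers it was 11.2, 3.90, 7.19 and 7.97 CPM, and in Ad-FAT10 Pema livers 342, 382, 625 and 461 CPM. Every pemafibrate liver was far above every CMC liver, whichever virus it had. Pemafibrate raised Pdk4 218-fold in Ad-CTRL livers, from 3.28 ± 0.505 to 717 ± 164 CPM (SD, n = 4 each; log2 change 7.77 ± 0.32 SE, edgeR adjusted p = 2.88e-11). In Ad-FAT10 livers it raised Pdk4 60.0-fold, from 7.57 ± 3.01 to 453 ± 125 CPM (log2 change 5.91 ± 0.29, edgeR adjusted p = 2.8e-10). Skeletal and heart muscle, tissues that hold much Pdk4, left little trace, since the summed level of 6 muscle markers was at most 1.42 CPM in any library. Acta1, the 1 of them with enough counts to test, was higher with Ad-FAT10 under both treatments and rose with pemafibrate in Ad-FAT10 livers. The sum was at most 0.481 CPM in Ad-CTRL livers and 0.656 to 1.42 CPM in Ad-FAT10 Pema livers. Acta1 thus entered the test through the livers where it was high, so its calls are not read as a result. Of 4 adipocyte markers 3 had means under 1 CPM in every group, and the other, the lipid droplet gene Cidec, rose with pemafibrate by 3.47 and 3.45 on the log2 scale.

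Ad-FAT10 moved Pdk4 in opposite directions under the 2 treatments. Under CMC it was 2.30-fold higher with Ad-FAT10 (log2 change 1.20 ± 0.28, edgeR adjusted p = 0.00226), although the lowest Ad-FAT10 liver, at 3.90 CPM, lay below the highest Ad-CTRL liver, at 3.98 CPM. Under pemafibrate it was 1.58-fold lower (log2 change -0.66 ± 0.23, edgeR adjusted p = 0.0283), and here too the groups overlapped. This second call was lost without Ad-CTRL Pema replicate 3 (log2 change -0.50, adjusted p = 0.11) and without Ad-FAT10 Pema replicate 1 (-0.55, 0.0729), 2 (-0.59, 0.0811) or 4 (-0.67, 0.0517).

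The interaction, which is the log2 pemafibrate response in Ad-FAT10 livers minus that in Ad-CTRL livers, was -1.86 ± 0.36 for Pdk4 (edgeR adjusted p = 0.0492), a 3.64-fold smaller response. Pdk4 was the 1 gene of the 10 with a called interaction and it was negative, where 0.0271% of all genes tested had a called positive interaction and 0.129% a called negative one. The adjusted p lay just inside the threshold. It was above it in 14 of 16 fits that each left out 1 liver (log2 values -2.06 to -1.62 and adjusted p 0.0154 to 0.129 over the 16), and with the size factors of DESeq2 (0.0517), while DESeq2 itself gave 0.000192. On the linear scale the rise in Pdk4 was 713 CPM in Ad-CTRL livers and 445 CPM in Ad-FAT10 livers. Most of the interaction on the log scale lay in the CMC baseline, where the difference with Ad-FAT10 was 1.20, against -0.66 under pemafibrate. That baseline rests on few counts of Pdk4, 55 to 86 per library with Ad-CTRL and 102 to 245 with Ad-FAT10.

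Pdk2, the kinase most abundant per exon length in CMC livers, was lowered by pemafibrate and by Ad-FAT10. Its levels were 110, 110, 114 and 182 CPM in Ad-CTRL CMC livers and 83.2, 98.6, 90.1 and 91.5 CPM in Ad-CTRL Pema livers. They were 90.9, 107, 86.7 and 85.8 CPM in Ad-FAT10 CMC livers and 82.2, 69.9, 60.8 and 75.7 CPM in Ad-FAT10 Pema livers. In none of the 4 comparisons did the groups overlap, and replicate 4 of Ad-CTRL CMC stood well above the rest. Pdk2 fell with pemafibrate in Ad-CTRL livers (log2 change -0.51 ± 0.14, edgeR adjusted p = 0.0116) and with Ad-FAT10 under CMC (-0.48 ± 0.14, 0.012). Both changes shrank without Ad-CTRL CMC replicate 4, to -0.29 (adjusted p = 0.0466) and -0.27 (0.0503), so the second was no longer called. The pemafibrate change in Ad-FAT10 livers was -0.36 ± 0.14 (adjusted p = 0.0763) and the Ad-FAT10 change under pemafibrate -0.33 ± 0.14 (0.0708), and both passed without that same liver (0.0113 and 0.0115), without Ad-FAT10 Pema replicate 1 (0.0496 and 0.0422) and when only the groups compared were fitted (0.043 and 0.0224). A non-coding gene on the opposite strand overlaps Pdk2, but it held 9 counts over the 16 libraries beside 35608 for Pdk2.

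Pdk1, a kinase also known as a target of the hypoxia factor HIF1α, was lower with Ad-FAT10 under both treatments. It stood at 98.8, 117, 147 and 144 CPM in Ad-CTRL CMC livers and at 65.6, 54.6, 55.7 and 68.3 CPM in Ad-FAT10 CMC livers. Under pemafibrate it stood at 120, 103, 91.7 and 89.9 CPM with Ad-CTRL and at 57.7, 62.2, 43.9 and 62.2 CPM with Ad-FAT10. All 8 Ad-FAT10 livers were below all 8 Ad-CTRL livers. The fall was 2.08-fold under CMC (log2 change -1.05 ± 0.14, edgeR adjusted p = 2.1e-05) and 1.79-fold under pemafibrate (-0.84 ± 0.14, 0.000167). The change with pemafibrate was -0.32 ± 0.14 in Ad-CTRL livers (adjusted p = 0.0908), which passed without Ad-CTRL CMC replicate 1 (0.0268) or Ad-CTRL Pema replicate 1 (0.0404), and -0.11 ± 0.14 in Ad-FAT10 livers (0.624).

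Pdk3, a kinase known to be little expressed in liver, was the rarest kinase and was higher with Ad-FAT10. Its levels were 1.11, 0.462, 0.924 and 0.566 CPM in Ad-CTRL CMC livers and 2.94, 2.33, 2.60 and 2.16 CPM in Ad-FAT10 CMC livers. With pemafibrate they were 0.934, 1.39, 0.998 and 0.441 CPM in Ad-CTRL livers and 1.39, 2.52, 3.21 and 2.80 CPM in Ad-FAT10 livers. The virus groups did not overlap under either treatment, though under pemafibrate the nearest libraries both printed as 1.39 CPM. Under CMC the rise of Pdk3 with Ad-FAT10 was 1.72 ± 0.32 log2 units (edgeR adjusted p = 0.000444), and under pemafibrate it was 1.42 ± 0.31 (0.00152). No library held more than 108 counts of it, and the lowest held 10. Its change with pemafibrate was 0.29 ± 0.36 in Ad-CTRL livers (adjusted p = 0.602) and -0.01 ± 0.28 in Ad-FAT10 livers (0.991).

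Markers of other cell types moved beside these changes, and their counts are to be read against the shares of all genes tested. With Ad-FAT10 these were 22.5% higher and 20.2% lower under CMC and 21.2% and 20.5% under pemafibrate. With pemafibrate they were 16.2% and 14.4% in Ad-CTRL livers and 12.9% and 12.5% in Ad-FAT10 livers. Of 10 T and NK cell markers 8 were higher with Ad-FAT10 under either treatment, and their summed level ran from 15.7 to 36.1 CPM in Ad-CTRL livers and from 36.0 to 80.0 CPM in Ad-FAT10 livers. Of 9 neutrophil markers 6 had enough counts to test, and of these 6 were higher with Ad-FAT10 under CMC and 5 under pemafibrate. In each Ad-CTRL group 6 of the 9 had means under 1 CPM, against 2 and 4 in the Ad-FAT10 groups. Some could thus be tested only through the livers where they were high, so these counts were set in part by the filter. Of 12 macrophage markers 6 and 7 were higher with Ad-FAT10 under CMC and pemafibrate, and 4 and 4 lower. All 8 cycling-cell markers were higher, with sums of 32.8 to 50.3 CPM against 168 to 300 CPM. Of 10 hepatocyte markers 7 were lower with Ad-FAT10 under CMC, 8 under pemafibrate, and 6 were lower with pemafibrate with either virus. Also lower with Ad-FAT10, under CMC and pemafibrate, were 5 and 5 of 8 endothelial, 4 and 3 of 6 B cell and 4 and 3 of 9 stellate cell markers, with 2 of the stellate markers higher under pemafibrate. With pemafibrate, 6 of 6 neutrophil markers were lower in Ad-FAT10 livers (median log2 change -1.79) and 0 in Ad-CTRL livers (-0.415), where levels were low. None of these 6 had a called interaction, so a difference between the viruses was not shown. Some of the 6 may have been tested only through the Ad-FAT10 CMC livers, where levels were highest. The count of lower neutrophil markers with pemafibrate may thus also be set in part by the filter. Of 8 cycling-cell markers 4 were lower and 1 higher with pemafibrate in Ad-CTRL livers and 6 lower in Ad-FAT10 livers. The part of these in the changes of the 10 genes was not tested.

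Setting the kinases side by side needs a correction for length, so CPM was divided by the length of each gene's merged exons in kilobases. In Ad-CTRL CMC livers Pdk2 made up 69.6% ± 4.47 of the summed per-length level of the 4 kinases (SD, n = 4), Pdk1 28.3% ± 4.12, Pdk4 1.65% ± 0.379 and Pdk3 0.543% ± 0.278. In Ad-CTRL Pema livers Pdk4 made up 82.5% ± 3.15 and Pdk2 12.0% ± 2.33. The Ad-FAT10 livers had the same leading kinase in each treatment: Pdk4 was 5.39% (2.60% to 7.70%) under CMC and 79.8% ± 5.50 under pemafibrate, and Pdk2 72.6% ± 4.49 and 14.9% ± 4.28. No CMC liver had more than 7.70% of Pdk4. With coding length in place of exon length Pdk4 made up 78.6% ± 3.71 in Ad-CTRL Pema livers. Pdk1 and Pdk2 were then closer to each other in Ad-CTRL CMC livers, at 47.4% ± 5.03 and 50.9% ± 5.22. Their ranges there overlapped, at 42.2% to 53.6% and 44.5% to 56.7%.

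The summed kinase level rose from 58.3 ± 13.0 to 246 ± 46.3 CPM per kb with pemafibrate in Ad-CTRL livers, and from 40.2 ± 2.34 to 160 ± 32.6 CPM per kb in Ad-FAT10 livers. The summed level of the phosphatases was 8.65 ± 0.729, 18.0 ± 2.46, 7.85 ± 0.802 and 11.5 ± 1.55 CPM per kb in the 4 groups. The ratio of kinase to phosphatase mRNA was 6.80 ± 1.69 in Ad-CTRL CMC livers and 13.8 ± 2.34 in Ad-CTRL Pema livers. It was 5.14 ± 0.298 and 14.3 ± 4.02 in the corresponding Ad-FAT10 livers. In every pemafibrate liver it was at least 10.1, and in every CMC liver at most 9.14. Per coding length this gap closed, with a lowest pemafibrate liver at 8.44 and a highest CMC liver at 8.81. With Pdk4 left out of the sum the order turned, to 6.69 ± 1.69 and 2.38 ± 0.386 in Ad-CTRL livers and 4.87 ± 0.335 and 2.72 ± 0.280 in Ad-FAT10 livers. These sums are descriptions of mRNA, with no test.

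**Figure D3:**
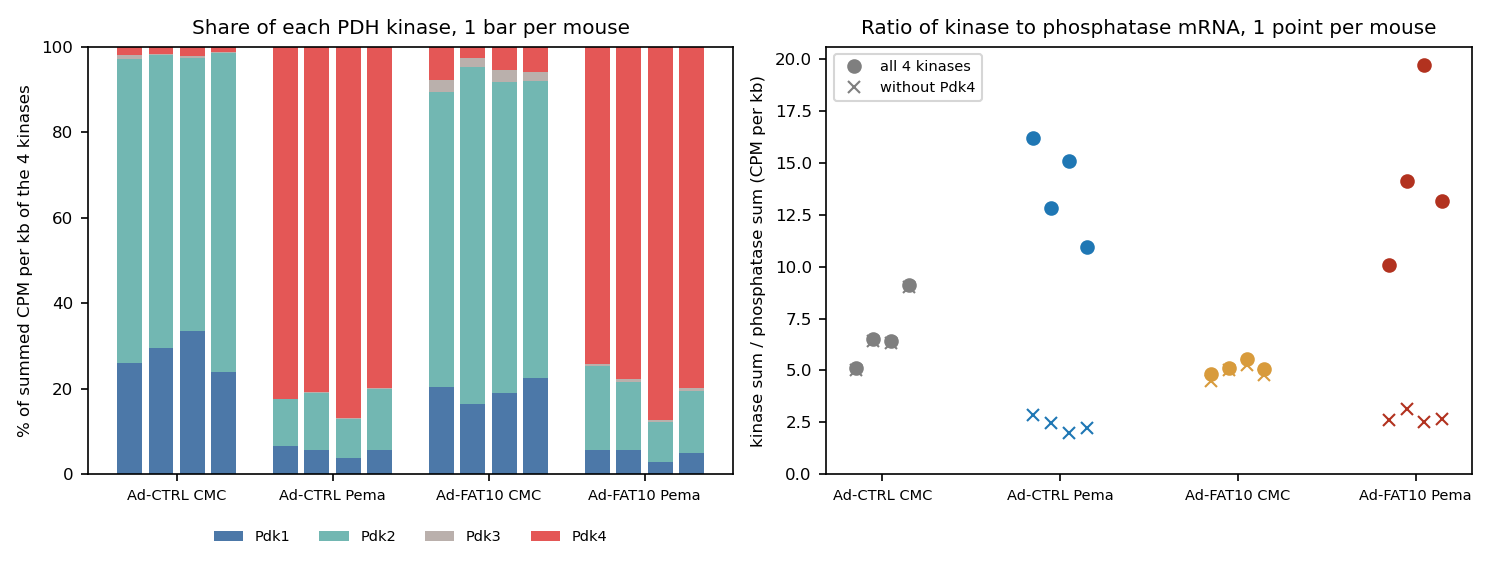
Left, the share of each PDH kinase in the summed per-length level of the 4 kinases (vertical axis, %; 1 bar per mouse). Right, the ratio of summed kinase to summed phosphatase level (vertical axis, ratio of CPM per kb; points are mice, crosses leave out Pdk4). Pdk4 fills 82.5% and 79.8% of the bars on average in the pemafibrate groups, and crosses there lie below those of the CMC groups.

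Per length and in Ad-CTRL CMC livers, the highest of the 10 transcripts were Pdhb at 42.1 ± 1.66 and Pdk2 at 40.8 ± 11.2 CPM per kb, followed by Pdha1 at 22.8 ± 1.68 and Pdk1 at 16.3 ± 2.96 CPM per kb. Dlat at 10.2 ± 1.16, Pdhx at 9.52 ± 1.44 and Pdp2 at 8.26 ± 0.777 CPM per kb came next. Pdk4 at 0.934 ± 0.144, Pdp1 at 0.388 ± 0.0900 and Pdk3 at 0.299 ± 0.119 CPM per kb were lowest. Neighbours closer than the larger of their SDs were Pdhb and Pdk2, Dlat and Pdhx, Pdhx and Pdp2, and Pdp1 and Pdk3. In Ad-CTRL Pema livers Pdk4, at 204 ± 46.8 CPM per kb, stood above Pdhb, at 45.4 ± 1.42 CPM per kb.

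Of the phosphatases, Pdp2 rose with pemafibrate with either virus, and less in Ad-FAT10 livers by its fitted change. It is the isoform known in liver for its response to insulin and fasting. Its levels were 52.3, 41.6, 47.7 and 46.5 CPM in Ad-CTRL CMC livers and 81.0, 101, 116 and 103 CPM in Ad-CTRL Pema livers. In Ad-FAT10 livers they were 44.2, 42.8, 34.4 and 40.1 CPM under CMC and 71.8, 52.7, 54.7 and 68.7 CPM under pemafibrate. The treatment groups did not overlap with either virus, and every Ad-FAT10 Pema liver was below every Ad-CTRL Pema liver. Pemafibrate raised Pdp2 2.14-fold in Ad-CTRL livers (log2 change 1.10 ± 0.13, edgeR adjusted p = 2.73e-06) and 1.54-fold in Ad-FAT10 livers (0.62 ± 0.12, 0.00121). With Ad-FAT10 it was 1.62-fold lower under pemafibrate (-0.70 ± 0.12, adjusted p = 0.000267), and the change under CMC was -0.22 ± 0.12 (0.165). The interaction of -0.48 ± 0.18 did not pass (adjusted p = 0.328), so the smaller response in Ad-FAT10 livers was not shown.

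Pdp1, the calcium-stimulated phosphatase known mainly from muscle, was rare and moved the other way. It was at 1.64, 2.26, 1.80 and 1.29 CPM in Ad-CTRL CMC livers and at 3.67, 3.67, 3.29 and 3.09 CPM in Ad-FAT10 CMC livers. Under pemafibrate it was at 2.13, 1.71, 0.848 and 1.32 CPM with Ad-CTRL and at 1.97, 2.94, 3.38 and 1.95 CPM with Ad-FAT10. The virus groups were apart under CMC and overlapped under pemafibrate, and library counts were 17 to 114. Pdp1 rose with Ad-FAT10 under CMC (log2 change 0.96 ± 0.25, edgeR adjusted p = 0.0046) and under pemafibrate (0.78 ± 0.25, 0.0194). The latter call was lost without Ad-CTRL Pema replicate 3 (0.0707) or 4 (0.0582), without Ad-FAT10 Pema replicate 2 (0.0531) or 3 (0.0733), and when only those groups were fitted (0.0508). Its pemafibrate changes were -0.23 ± 0.27 (adjusted p = 0.568) and -0.42 ± 0.23 (0.213).

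The group means of the 4 subunits spanned 0.269 to 0.614 log2 units, and those of the kinases and phosphatases 0.812 to 7.72. Dlat, the acetyltransferase core of the complex, was at 43.9, 47.5, 57.3 and 50.5 CPM in Ad-CTRL CMC livers and at 60.7, 70.2, 68.7 and 58.3 CPM in Ad-CTRL Pema livers. In Ad-FAT10 livers it was at 47.4, 41.9, 43.2 and 50.6 CPM under CMC and at 56.9, 62.8, 52.3 and 63.6 CPM under pemafibrate. With either virus all pemafibrate livers were above all CMC livers. Dlat rose with pemafibrate by 0.37 ± 0.10 on the log2 scale in Ad-CTRL livers (edgeR adjusted p = 0.00791) and by 0.36 ± 0.10 in Ad-FAT10 livers (0.0112). Its Ad-FAT10 changes were -0.12 ± 0.10 (adjusted p = 0.344) and -0.13 ± 0.10 (0.301).

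Pdhx, the protein that anchors dihydrolipoamide dehydrogenase, the last enzyme of the complex, to the core, followed the same pattern. It was at 41.9, 40.5, 37.9 and 29.3 CPM in Ad-CTRL CMC livers and at 48.1, 50.8, 48.1 and 48.4 CPM in Ad-CTRL Pema livers. In Ad-FAT10 livers it was at 38.8, 34.4, 38.9 and 39.2 CPM under CMC and at 51.1, 48.1, 43.2 and 46.2 CPM under pemafibrate. Again no CMC liver reached a pemafibrate liver of the same virus. Pdhx rose by 0.39 ± 0.10 on the log2 scale (edgeR adjusted p = 0.00525) and by 0.32 ± 0.10 (0.021). The rise in Ad-FAT10 livers was no longer called without Ad-FAT10 CMC replicate 2 (0.0577) or without Ad-FAT10 Pema replicate 1 (0.0581) or 2 (0.0522). Its Ad-FAT10 changes were 0.02 ± 0.10 (adjusted p = 0.897) and -0.05 ± 0.10 (0.691).

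Pdha1, the X-linked alpha subunit that carries the phosphorylation sites, was lower with Ad-FAT10. Its levels were 79.0, 89.7, 91.2 and 80.5 CPM in Ad-CTRL CMC livers and 76.1, 60.8, 61.1 and 62.3 CPM in Ad-FAT10 CMC livers. Under pemafibrate they were 99.0, 94.6, 106 and 97.6 CPM with Ad-CTRL and 82.5, 85.5, 70.1 and 85.1 CPM with Ad-FAT10. The virus groups did not overlap under either treatment. With Ad-FAT10, Pdha1 fell by 0.39 ± 0.09 log2 units under CMC (edgeR adjusted p = 0.00276) and fell by 0.30 ± 0.09 under pemafibrate (0.0148), and the second call was lost without Ad-FAT10 Pema replicate 3 (0.0579) or with no filter on low counts (0.0752). It rose with pemafibrate in Ad-FAT10 livers by 0.31 ± 0.09 (adjusted p = 0.0176), a call lost without Ad-FAT10 CMC replicate 3 (0.0547) or Ad-FAT10 Pema replicate 2 (0.0576) or 4 (0.0543). In Ad-CTRL livers the change was 0.22 ± 0.09 (0.0771), and 0.0469 without Ad-FAT10 CMC replicate 1. Map3k15 overlaps it on the opposite strand, with 454 counts over the 16 libraries beside 30951 for Pdha1, and the testis copy Pdha2 had 0 counts.

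Pdhb, the beta subunit that pairs with Pdha1, was the 1 gene of the 10 with no call in any comparison. It was at 172, 158, 159 and 163 CPM in Ad-CTRL CMC livers and at 184, 151, 184 and 255 CPM in Ad-FAT10 CMC livers. With pemafibrate it was at 182, 176, 168 and 175 CPM in Ad-CTRL livers and at 237, 191, 159 and 205 CPM in Ad-FAT10 livers. The Ad-FAT10 livers were the more scattered, and overlapped the Ad-CTRL livers. Its largest change was 0.25 ± 0.13 with Ad-FAT10 under CMC (edgeR adjusted p = 0.138), which passed without Ad-FAT10 CMC replicate 2 (0.043). Within a library, the count ratio of Pdha1 to Pdhb was 0.525 ± 0.0565, 0.568 ± 0.0422, 0.348 ± 0.0779 and 0.413 ± 0.0450 in the 4 groups. The highest Ad-FAT10 liver, at 0.447, lay below the lowest Ad-CTRL liver, at 0.460.

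Genes with the profile nearest to each changing member were ranked over the 16 libraries by the root mean square difference in centred log2 CPM, among 10810 genes. The 5 nearest to Pdk4 were the mitochondrial acyl-CoA thioesterase Acot2 (0.485), Cpne5 (0.621), the peroxisomal oxidation enzyme Ehhadh (0.714) and the fatty acid hydroxylases Cyp4a14 (0.831) and Cyp4a31 (1.08). Nearest to Pdp2 were Snrk, Tmem135, Arl8b, Tmem245 and Ctif (0.153 to 0.167). Nearest to Pdk1 were Atp23, Hyi, Mettl8, Sord and Polr3g (0.194 to 0.202). Nearest to Pdk3 were Gzmb, Gbp3, Cd8b1 and Mpeg1 (0.239 to 0.275), and nearest to Pdp1 were Lrmp, Lpxn, Chst14, Slc7a5 and Atp2a3 (0.243 to 0.272). Gzmb and Cd8b1 are cytotoxic T cell genes and Mpeg1 a macrophage gene. The 16 libraries share their groups, so this likeness is a description.

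**Figure D4:**
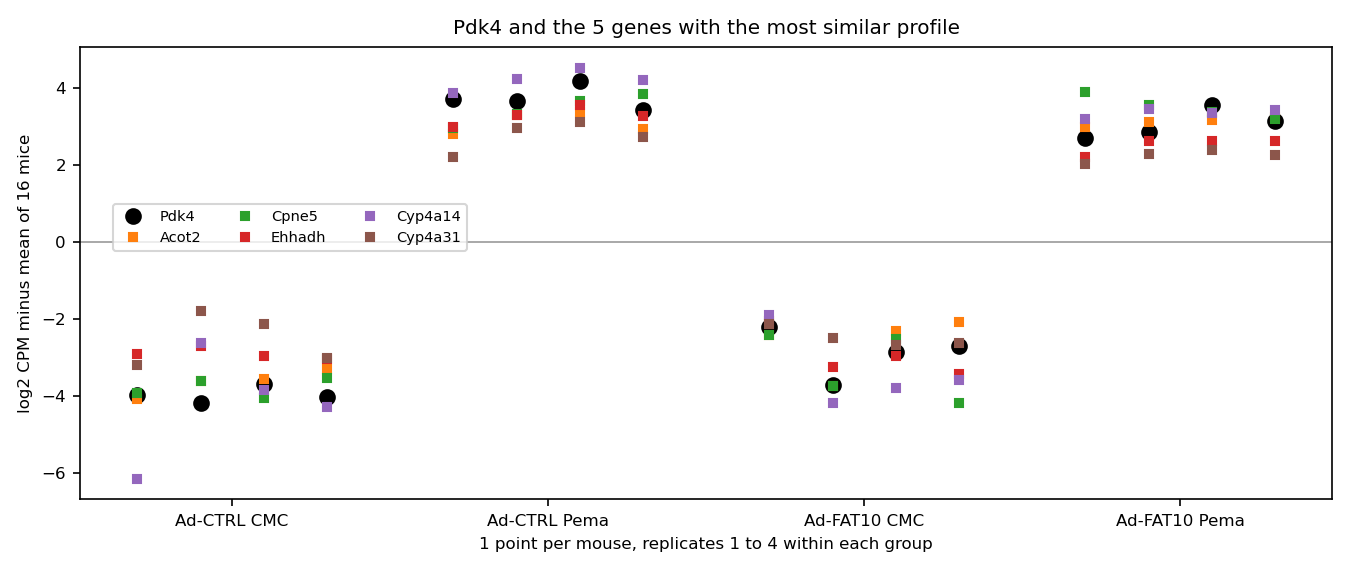
Log2 CPM minus the mean of 16 livers (vertical axis) for Pdk4 and its 5 nearest genes, 1 point per mouse in group order (horizontal axis). All 6 genes lie above their mean in the 8 pemafibrate livers and below it in the 8 CMC livers.

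The counts that follow are for lists of related genes, and are to be read against the shares of all 14770 genes tested. With pemafibrate these were 16.2% higher and 14.4% lower in Ad-CTRL livers and 12.9% and 12.5% in Ad-FAT10 livers. With Ad-FAT10 they were 22.5% and 20.2% under CMC and 21.2% and 20.5% under pemafibrate, and the median over all genes lay between -0.020 and -0.008 in the 4 comparisons. A list of 10 genes held Dld, the last enzyme of PDH, subunits of the related oxoacid dehydrogenases, a regulator of PDH phosphatase, and the kinase and phosphatase of the branched-chain complex. Of these 4 were higher and 1 lower with pemafibrate, with either virus (median log2 change 0.269 and 0.162). Dld itself rose by 0.33 on the log2 scale (edgeR adjusted p = 0.0243) and 0.37 (0.0145). Dlst, the core of the oxoglutarate complex, rose by 0.84 and 0.63, and Ppm1k, the phosphatase of the branched-chain complex, by 0.96 and 0.54. With Ad-FAT10, 0 were higher and 3 lower under CMC and 1 higher and 7 lower under pemafibrate (median -0.184 and -0.340), and 3 of 10 is near the 20.2% of all genes. Ppm1k fell by 0.62 and 1.05, while Bckdk, the kinase of the branched-chain complex and a relative of the PDH kinases, was the 1 that rose (0.29 under pemafibrate, adjusted p = 0.032).

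PDH needs lipoate and thiamine cofactors, and of 16 genes for their supply 3 rose and 1 fell with pemafibrate in Ad-CTRL livers, and 5 rose and 1 fell in Ad-FAT10 livers (median 0.132 and 0.207). Iba57, an iron-sulfur assembly factor, rose by 1.25 and 1.06 on the log2 scale, and Ndufab1, the mitochondrial acyl carrier protein, by 1.54 and 1.22. With Ad-FAT10, 10 of the 16 fell under CMC and 6 under pemafibrate, and 0 rose (median -0.340 and -0.274). Isca1, an iron-sulfur cluster protein, fell by 0.62 and 0.85.

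Among 18 genes of pyruvate supply and use, 7 rose and 7 fell with pemafibrate in Ad-CTRL livers, and 6 rose and 3 fell in Ad-FAT10 livers (median 0.002 and 0.105). The pyruvate carrier subunit Mpc2 rose by 0.63 (edgeR adjusted p = 0.000155) and 0.85 (1.23e-05), whereas the change of its partner Mpc1 was 0.20 (0.151) and 0.17 (0.249). The liver pyruvate kinase Pklr fell by 1.95 and 1.39 on the log2 scale, and the monocarboxylate transporter Slc16a1 rose by 2.05 and 1.69. With Ad-FAT10 3 rose and 5 fell under each treatment (median -0.151 and -0.252), counts near the shares of all genes. Both carrier subunits were among those that fell, Mpc1 by 0.67 and 0.70 and Mpc2 by 0.81 and 0.60. The other pyruvate kinase, Pkm, rose by 1.77 and 1.96.

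Of 16 genes of fatty acid oxidation and ketogenesis, 16 rose with pemafibrate in Ad-CTRL livers and 15 in Ad-FAT10 livers, with medians of 1.15 and 1.23 on the log2 scale, and 0 fell. With Ad-FAT10 11 fell under CMC and 9 under pemafibrate, and 0 rose (median -0.365 and -0.341), while Pdk4 was higher under CMC and lower under pemafibrate. None of the 16 had a called interaction, where 23 of all 14770 genes tested had one. Among 13 nuclear factors known to act on Pdk4 or Pdk2, 3 rose and 4 fell with pemafibrate in Ad-CTRL livers and 1 rose and 5 fell in Ad-FAT10 livers (median -0.162 and -0.051). Ppara rose by 0.60 (edgeR adjusted p = 0.00791) with Ad-CTRL, and its change with Ad-FAT10 was 0.27 (0.248). The treatment groups overlapped with either virus. Its interaction of -0.33 ± 0.23 did not pass (edgeR adjusted p = 0.634), so a difference between the viruses was not shown. Foxo3 fell by 0.71 and 0.87, and Hif1a rose by 0.54 and 0.42. With Ad-FAT10 1 rose and 1 fell under CMC and 1 rose and 4 fell under pemafibrate (median -0.170 and -0.105), and Ppara changed by -0.23 (0.259) and fell by 0.56 (0.00912). Hif1a rose with Ad-FAT10 too, by 0.37 (0.00122) and 0.25 (0.0152), in the same comparisons in which Pdk1 fell. These are mRNA levels, and a relation between Hif1a and Pdk1 was not tested.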

How the data were processed

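Poly(A) RNA of 16 livers was sequenced on DNBSEQ from strand-marked libraries, per the labels' protocols, 1 library per mouse. The authors deposited raw counts per Ensembl gene and did not normalize them. The submitters' processing notes name the build GRCm39 and STAR 2.7.6, and DESeq2 as 1.36.0 and 2.11.40.6. Which program counted the reads, with what annotation and strand setting, is not given in the sources used here. Symbols, chromosomes and lengths were matched by identifier to GENCODE M21 (52083 identifiers, 94.0%).

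Counts were analysed with edgeR 4.0.16 in R 4.3.3: filterByExpr kept 14770 genes, libraries were scaled by TMM, and 1 quasi-likelihood fit held all 4 groups (12 residual degrees of freedom, biological coefficient of variation 0.151). The p-values of 4 comparisons and their interaction were adjusted over all genes by Benjamini-Hochberg, and those under 0.05 were called. Each SE is the log2 change over the square root of F and restates the test. No 2 of 24 replicate pairs were identical. The model was tested on simulated data. Alternatives were DESeq2 1.42.0, its size factors, no filter, a replicate block, fits of only the groups compared and leaving out each mouse. The labels give no batch.

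The 10 genes, the lists and the tests were chosen with earlier results of these data known. All 10 genes are described. From each list of related genes only those with the 4 smallest p-values in a comparison could be named, besides Dld, Mpc1, Mpc2, Bckdk and Ppara. Nearest genes were the 5 with the smallest root mean square difference, for Pdk4 and for genes whose group means span over 1 log2 unit; 1 of them is not reported here. Same-numbered mice did not pair: the correlation of their deviations ran from -0.172 to 0.131.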

Additional observations from a re-analysis of the deposited data

Results flagged for a closer look

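In 40 sets of 4 livers, the 10 genes in each of 4 groups, 4 livers stood far from the rest of their group, and chance alone would single out about 1 in 20 such sets. Pdk2 was at 182 CPM in replicate 4 of Ad-CTRL CMC, where the nearest other liver was at 114 CPM. Pdha1 was at 76.1 CPM in replicate 1 of Ad-FAT10 CMC, where the nearest was at 62.3 CPM. Pdhx was at 50.8 CPM in replicate 2 of Ad-CTRL Pema, where the nearest was at 48.4 CPM, and at 34.4 CPM in replicate 2 of Ad-FAT10 CMC, where the nearest was at 38.8 CPM. The log2 pemafibrate response of Pdk4 differed between the viruses by -1.86 in the interaction test.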

How the results depend on the processing

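None of the 10 genes changed direction past the threshold under an alternative. Leaving out 1 mouse at a time, the number called (of 10) ran from 5 to 6 for pemafibrate in Ad-CTRL livers, 3 to 6 in Ad-FAT10 livers, 5 to 7 for Ad-FAT10 under CMC, 4 to 7 under pemafibrate and 0 to 1 for the interaction. It was lowest, at 3, without Ad-FAT10 Pema replicate 2. With DESeq2 size factors in edgeR the interaction count was 0, the adjusted p of Pdk4 being 0.0517. With the replicate block the counts were 5, 5, 6, 6 and 1, as without it, and no call of the 10 genes changed; only 2 of 16 same-numbered pairs correlated over 0.1. Over all genes, 23 interactions were called, against 93 with no filter, 119 with DESeq2 and 11 to 36 with a mouse left out. Per coding length, an alternative added after the data were seen, the kinase to phosphatase ratio of Ad-FAT10 CMC livers was 4.83 in place of 5.14, and the lowest pemafibrate liver (8.44) no longer lay above the highest CMC liver (8.81). Causes of these shifts were not tested. Depth limits Pdk3 and Pdp1, at 10 to 114 counts per library. It also limits Pdk4 in CMC livers, at 55 to 86 counts with Ad-CTRL and 102 to 245 with Ad-FAT10.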
